A study of Rattus norvegicus with 12 samples.

Results

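The 33 genes described here mark the oligodendrocyte lineage, from precursor cells to the cells that make myelin, and were measured in hippocampal RNA of 12 rats that had been exposed to blast. They were chosen by symbol, by a rule that used no measured value, but earlier results of these data were known at the time. All 33 were among the 17494 genes of the count table and among the 12325 that passed edgeR's filter on low counts. They fall into 3 precursor genes, 6 genes of committed and premyelinating cells, 5 transcription factors and 19 mature genes, of which 10 encode myelin structure, 4 act in lipid and acetate metabolism and 5 have other roles. The rats were wild-type male Long Evans rats, and all 12 received 3 blasts at 10 weeks of age, 1 per day, and were sacrificed 29 weeks later. From the second week after the blasts, 6 rats ate chow with 500 mg/kg boldine, an alkaloid of the Boldo tree (blast-boldine), and 6 stayed on standard chow (blast-controls). Rats without blast exposure were not analysed here, so the comparison is of boldine within blast exposure only. The labels name the tissue only as brain and the study's methods name it as hippocampus, and the library of each rat came from that rat alone.

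Oligodendrocyte precursor cells carry the receptor for platelet-derived growth factor and the proteoglycan NG2, divide throughout adult life and give rise to new myelinating cells. As a precursor commits, it passes through a short premyelinating stage with markers of its own, and the transcription factors SOX10, OLIG2 and MYRF then drive the genes of the myelin sheath. Myelin is a compacted stack of membrane held together by proteins such as myelin basic protein and rich in galactolipids and cholesterol, and in the hippocampus it is dense in the alveus and fimbria and sparser among the neurons. In bulk tissue, fewer cells of a type and less RNA per cell cannot be told apart, and so a level below is a level in the dissected tissue.

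Total counts lay between 10148474 and 40850106 in 11 of the rats and were 74008 in blast-control rat 6, whose library was very shallow. CPM here are counts scaled to a common library size after TMM normalization, and 1 count was worth 15.8 CPM in rat 6, so that 3 counts, taken as the smallest detected amount, came to 47.5 CPM there and to at most 0.307 CPM in any other rat, which covers counting error only. The 33 genes had between 0 and 65 counts in rat 6, and the differences of single genes between treatments are given with and without it. The library names end in suffixes from 1 to 6, each used on 2 libraries, as 2 sets of 6 libraries would give. No label names a sheet, run or other batch, and "sheet" is only the name given here to an inferred split, which cannot be told apart from a set of rats dissected or prepared together. The split has rats 1, 7, 9, 20, 32 and 35 on sheet A and the other 6 on sheet B. Of the 32 splits that put each suffix once on each side, it was the one that followed the first principal component of 11516 genes most closely, and each sheet holds 3 rats of each treatment. That component held 76.7% of the variance over 11 rats, and this split accounted for 94.8% of it, the next of the 32 for 61.9% and treatment for 1.58%. Because the split was chosen on expression, levels on the sheets are described without a test, and tests with a sheet term are of the treatment difference or of how it varied by sheet.

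The lineage was well represented. On a scale per transcript length (TPM, computed from the counts and the exon lengths in the table), Mbp, myelin basic protein, had the highest level of the 33 genes, with a median of 1686 TPM over the 11 rats other than rat 6 and a range of 908 to 2172 TPM. The medians of Tf, transferrin, and Cnp, an enzyme of uncompacted myelin, were 563 and 519 TPM. Pdgfra, the receptor of precursor cells, had a median of 63.3 TPM, and the lowest medians were 10.1 TPM for Nkx2-2 and 6.96 TPM for Tcf7l2. The 33 genes together took between 0.460% and 0.917% of all counts in these rats. Of 8 hippocampal marker genes in the table, none was at 0 in all 11 rats, and their summed level ran from 989 to 1256 CPM in blast-boldine rats and from 948 to 1461 CPM in the blast-controls other than rat 6.

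No lineage gene differed between the treatments at an adjusted p under 0.05. By the quasi-likelihood test of edgeR over all 12 rats, with p adjusted over all genes by Benjamini-Hochberg, 0 of the 33 passed, as did 0 of the 12325 genes tested (0%), and the smallest adjusted p was 1.0 both among the 33 and over all genes. At an unadjusted p under 0.05, 0 of the 33 were higher and 0 were lower, against 0.552% of all genes tested that were higher and 0.519% that were lower, and DESeq2 gave 0 of the 33 as well. These shares are well under what a threshold of 0.05 gives when no gene differs. The fit thus called few genes of any kind, and 0 of the 33 is near the share of all genes. By fitted direction, 15 genes were higher in blast-boldine rats and 18 lower, with a median log2 fold change of -0.05 beside 0.005 over all genes. Precursor genes had a median of 0.05 (2 higher, 1 lower), committed genes -0.05 (2 and 4), transcription factors -0.19 (0 and 5) and mature genes 0.01 (11 and 8). Without rat 6, the medians of precursor and committed genes were 0.01 and -0.001, that of transcription factors -0.23 (0 and 5) and that of mature genes -0.08 (3 and 16). The median of the mature genes thus changed sign with the shallow library, and none of these genes passed the test in either fit.

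**Figure D1:**
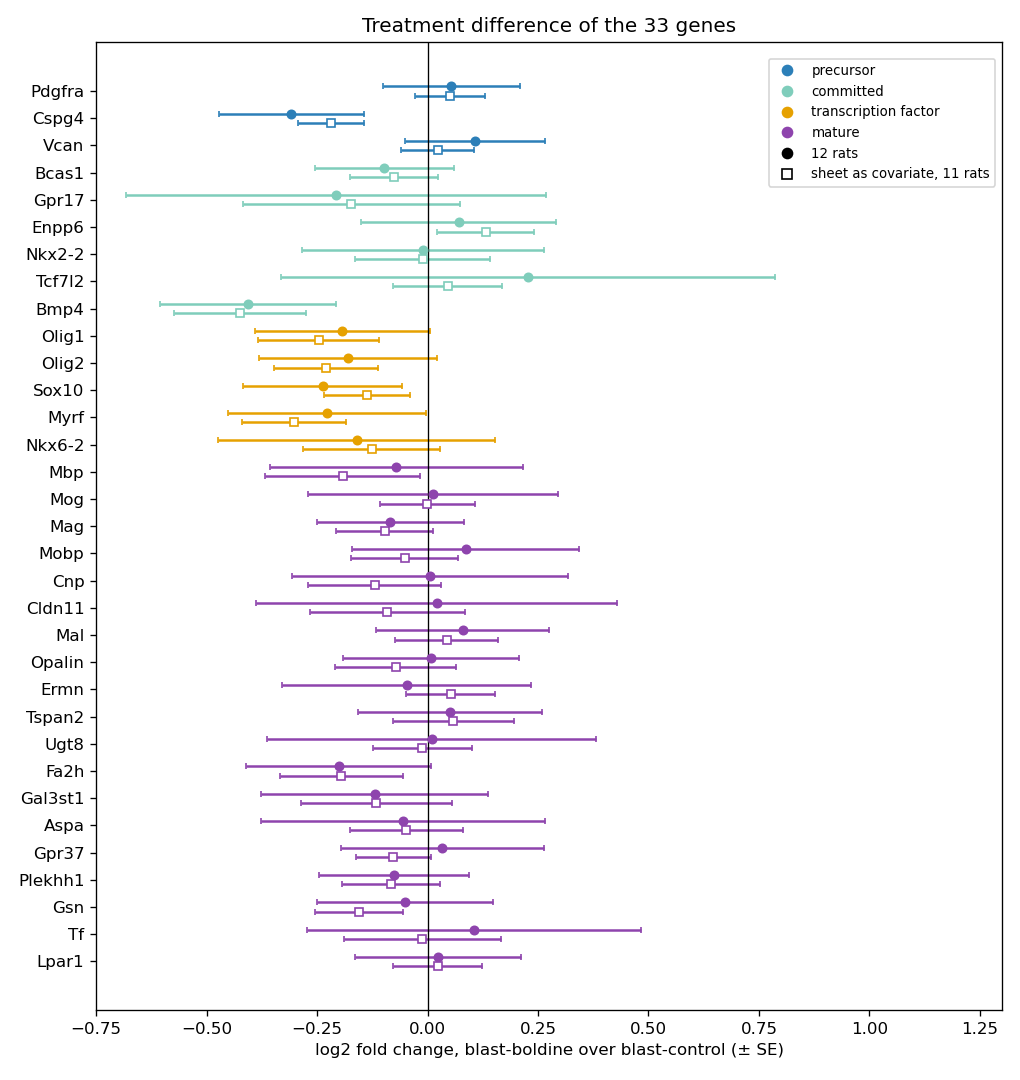
Log2 fold change of blast-boldine over blast-control rats (horizontal axis, bars are ± SE) for each of the 33 genes (vertical axis), colored by stage. Filled circles are edgeR with all 12 rats and open squares are edgeR that also fits the inferred sheet and leaves out rat 6. The bars of all 5 transcription factors are centered below 0, and the bars of most mature genes span 0.

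Of the 3 precursor genes, Cspg4 was the one with the smallest p. It encodes the NG2 proteoglycan of precursor cells and also of pericytes, and lies on chromosome 8, 57264962 to 57300010, plus strand of mRatBN7.2. Blast-boldine rats 12, 17, 19, 20, 32 and 35 had 43.8, 54.9, 50.7, 64.7, 67.1 and 60.1 CPM. Blast-control rats 1, 4, 5, 7 and 9 had 69.1, 61.3, 59.5, 76.4 and 69.5 CPM, and rat 6 had 127 CPM. All 6 blast-boldine rats lay under the median of those 5 blast-controls, and 3 lay below every blast-control, while the groups as a whole overlapped. The means were 56.9 ± 8.83 CPM (SD, 6 rats) and, without rat 6, 67.2 ± 6.86 CPM (SD, 5 rats). The log2 fold change was -0.31 (SE 0.16) with all 12 rats and -0.24 (SE 0.13) without rat 6, the former with an unadjusted p of 0.0823 and an adjusted p of 1.0 in edgeR.

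Within sheet A the 3 blast-boldine rats had 60.1 to 67.1 CPM of Cspg4 and the 3 blast-controls 69.1 to 76.4 CPM. Within sheet B the 3 blast-boldine rats had 43.8 to 54.9 CPM and blast-control rats 4 and 5 had 61.3 and 59.5 CPM. The treatments thus did not overlap within either sheet, a count made after the values were seen, which held in this direction for 1 of the 33 genes and for 87 of 12325 genes (0.706%), and in the opposite direction for 0 of the 33 and for 0.381% of all genes. In the fit with a sheet term and rat 6 left out, Cspg4 was lower in blast-boldine rats, at -0.22 (SE 0.07) on the log2 scale, with an unadjusted p of 0.0121 and an adjusted p of 0.898 in edgeR, and from -0.24 to -0.18 when each other rat was also left out. In an exact two-sided permutation test of mean log2 CPM, p was 0.0346 over the 924 assignments of 12 rats and 0.0714 over the 462 without rat 6. These p values are not adjusted over genes. With all rats 1 of the 33 genes was lower at an exact p under 0.05 and 0 were higher, against 0.503% and 1.78% of all genes tested. Cspg4 is also a pericyte gene, and the 8 endothelial and pericyte markers, none at 0 in all 11 rats, were fitted higher in 8 of 8 cases, with sums of 154 to 389 CPM in blast-boldine rats and 149 to 372 CPM in blast-controls without rat 6. Pdgfrb, a defining pericyte receptor, had means of 39.8 and 39.6 CPM. The part of pericytes in the Cspg4 values was not tested.

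Pdgfra, the receptor for platelet-derived growth factor A on precursor cells, lies on chromosome 14, 33005838 to 33054335, minus strand. The lowest, median and highest values were 136, 172 and 189 CPM in blast-boldine rats, 123, 168 and 194 CPM in the 5 deeper blast-controls and 111 CPM in rat 6. The groups overlapped over almost their whole ranges, with means of 166 ± 21.4 CPM (SD, 6 rats) and 164 ± 30.4 CPM (SD, 5 rats). The log2 fold change was 0.05 (SE 0.15) with all 12 rats and 0.01 (SE 0.14) without rat 6 (unadjusted p = 0.734 and 0.963, adjusted p = 1.0 in both, edgeR). Vcan, the matrix proteoglycan versican, had means of 101 ± 9.62 CPM (SD, 6 rats) and 98.4 ± 9.90 CPM (SD, 5 rats) and a log2 fold change of 0.11 (SE 0.16, and 0.04 without rat 6). Pdgfra is also made by fibroblasts, and the 8 meningeal and fibroblast markers, none at 0 in all 11 rats, summed to 72.5 to 294 CPM in blast-boldine rats and to 50.9 to 240 CPM in blast-controls without rat 6. Of these markers, 7 of 8 were fitted higher, with a median log2 fold change of 0.57, and Col3a1 and Slc6a13 had an unadjusted p under 0.05. Their part in the Pdgfra values was not tested.

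Of the 6 committed genes, Bmp4 had the smallest p. It encodes a secreted signal that is made by newly committed oligodendrocytes and holds precursors back from maturing, and lies on chromosome 15, 19618694 to 19622281, minus strand. Blast-boldine rats 12, 17, 19, 20, 32 and 35 had 9.71, 7.74, 7.16, 8.93, 13.5 and 10.9 CPM. Blast-control rats 1, 4, 5, 7 and 9 had 12.9, 13.9, 13.3, 14.2 and 10.8 CPM, and rat 6 had 0 counts, which at its depth allows up to 47.5 CPM. Of the 6 blast-boldine rats, 4 lay below all 5 of these blast-controls and 5 below their median. The means were 9.65 ± 2.30 CPM (SD, 6 rats) and 13.03 ± 1.37 CPM (SD, 5 rats). The log2 fold change was -0.41 (SE 0.20) with all 12 rats, with an unadjusted p of 0.0619 and an adjusted p of 1.0 in edgeR.

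Without rat 6 the log2 fold change of Bmp4 was -0.44 (SE 0.17), with an unadjusted p of 0.0246 and an adjusted p of 1.0 in edgeR. It was the only 1 of the 33 genes lower at that threshold, against 0.846% of all genes, and 0 were higher, against 0.551% of all genes. The exact permutation p of Bmp4 was 0.0281 without rat 6 and 0.987 with it, where the 0 of rat 6 enters as a very low log2 CPM. Without rat 6, 1.1% of all genes were lower at an exact p under 0.05 and 0.941% higher, and Bmp4 was the 1 lineage gene among them. Permuted within sheets as well, 2.68% were lower and 2.48% higher, and of the 33 genes Cspg4 and Bmp4 were lower and 0 higher, a count that for Cspg4 restates the lack of overlap within sheets. In sheet B the blast-boldine rats had 7.16 to 9.71 CPM and the deep blast-controls 13.3 and 13.9 CPM, a log2 difference of -0.73. In sheet A the ranges overlapped, with a difference of -0.20. On sheet B alone, Cspg4, Sox10, Nkx6-2 and Mag were also lower in blast-boldine rats without overlap, and Tcf7l2 was higher. These comparisons set 3 rats against 2, where groups separate easily. The share of all genes without overlap within a single sheet was not counted, so these separations are not read as results about the genes.

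The other 5 committed genes had no unadjusted p under 0.05 with all 12 rats. Bcas1, which marks early myelinating cells, had means of 399 ± 49.05 CPM (SD, 6 rats) and 412 ± 93.1 CPM (SD, 5 rats) and a log2 fold change of -0.10 (SE 0.16, and -0.05 without rat 6). Gpr17, a receptor of premyelinating cells, had a log2 fold change of -0.21 (SE 0.48, and -0.24 without rat 6), Enpp6, a phosphodiesterase of newly formed oligodendrocytes, 0.07 (SE 0.22, and 0.10 without rat 6), and Nkx2-2, a homeobox factor, -0.01 (SE 0.27, and 0.05 without rat 6). Tcf7l2, a transcription factor of the Wnt pathway found in premyelinating cells and also in thalamic neurons, had 0.23 (SE 0.56, and 0.36 without rat 6).

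The values of Gpr17 and Tcf7l2 are given by sheet, which was chosen after they were seen. Gpr17 ran from 14.0 to 24.3 CPM in the 6 rats of sheet A and from 3.99 to 13.0 CPM in the 5 deep rats of sheet B. Tcf7l2 ran the other way, from 7.41 to 10.6 CPM in sheet A and from 25.4 to 37.98 CPM in sheet B. Within sheet B, Tcf7l2 was 34.5 to 37.98 CPM in blast-boldine rats and 25.4 and 31.8 CPM in the deep blast-controls, and within sheet A the treatments overlapped. The 7 thalamic markers in the table, none at 0 in all 11 rats, summed to 156 to 191 CPM in sheet A and to 244 to 274 CPM in these rats of sheet B. Not all of them ran this way: of the 6 tested without rat 6, 4 were fitted higher on sheet B and 2 lower. The part of thalamic tissue in the Tcf7l2 values was not tested.

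**Figure D2:**
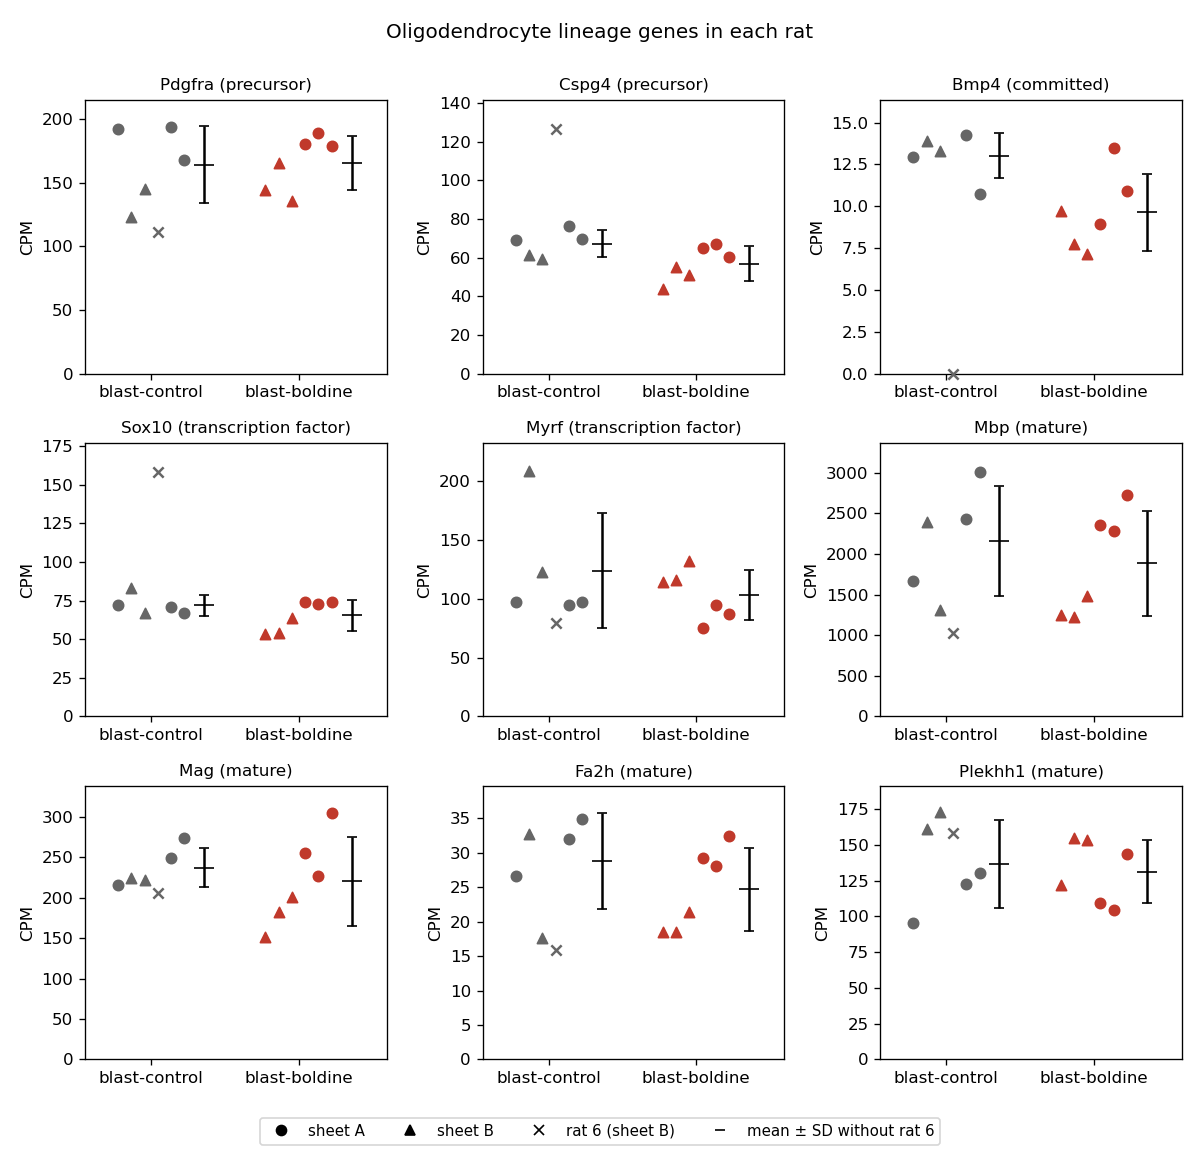
CPM (vertical axis, from 0) of the genes named by rule in each of the 12 rats, by treatment (horizontal axis), with circles for sheet A, triangles for sheet B, a cross for rat 6 and bars for the mean ± SD without rat 6. Cspg4 in blast-boldine rats ran from 43.8 to 67.1 CPM and in blast-controls other than rat 6 from 59.5 to 76.4 CPM, and Mbp overlapped between the treatments.

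All 5 transcription factors were fitted lower in blast-boldine rats, with log2 fold changes from -0.24 to -0.16, and none passed the test. The sign held for Olig1, Olig2 and Sox10 when any single rat was left out, while the log2 fold change of Myrf was 0.03 without rat 4 and that of Nkx6-2 was 0.005 without rat 5. Sox10, which acts throughout the lineage, had the smallest p of the group and lies on chromosome 7, 110725274 to 110735544, minus strand. Its lowest, median and highest values were 53.4, 67.9 and 74.3 CPM in blast-boldine rats and 66.6, 70.9 and 83.3 CPM in the 5 deeper blast-controls, and 158 CPM in rat 6. The ranges overlapped, with means of 65.3 ± 9.80 CPM (SD, 6 rats) and 71.99 ± 6.82 CPM (SD, 5 rats). The log2 fold change was -0.24 (SE 0.18) with all 12 rats (unadjusted p = 0.210, adjusted p = 1.0, edgeR) and -0.14 (SE 0.12) without rat 6. The direction of Sox10 differed by sheet. On sheet A blast-boldine rats had 72.5 to 74.3 CPM and blast-controls 66.6 to 72.4 CPM, a log2 difference of 0.08. On sheet B they had 53.4 to 63.4 CPM and the deep blast-controls 66.8 and 83.3 CPM, a difference of -0.39. An interaction term of sheet and treatment had an unadjusted p of 0.0130 and an adjusted p of 0.881 (edgeR, without rat 6).

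Myrf, which switches on the genes of the myelin sheath, lies on chromosome 1, 206854175 to 206886102, minus strand. Blast-boldine rats had lowest, median and highest values of 74.9, 104 and 132 CPM, and the 5 deeper blast-controls 94.5, 97.2 and 208 CPM, with 79.2 CPM in rat 6. The highest of all was blast-control rat 4, and the means were 103 ± 21.1 CPM (SD, 6 rats) and 124 ± 48.4 CPM (SD, 5 rats). The log2 fold change was -0.23 (SE 0.22) with all 12 rats (unadjusted p = 0.327, adjusted p = 1.0, edgeR) and -0.27 (SE 0.23) without rat 6. Fitted with a sheet term, the unadjusted p was 0.0409 with all rats, and without rat 6 the log2 fold change was -0.30 (SE 0.12), with an unadjusted p of 0.0242 and an adjusted p of 0.898. In sheet A the blast-boldine rats had 74.9 to 94.2 CPM and the blast-controls 94.5 to 97.2 CPM, and in sheet B they overlapped. How many of all genes lacked overlap within a single sheet was not counted, so the separation on sheet A is not read as a result about Myrf. The size of the difference in Myrf depended on rat 4. Without rat 4 and with all other rats the log2 fold change was 0.03, and with the sheet term and neither rat 4 nor rat 6 it was -0.13 (SE 0.07), with an unadjusted p of 0.115 and an adjusted p of 0.802 in edgeR.

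The partners Olig1 and Olig2, which lie side by side on chromosome 11 and specify the lineage, were fitted at -0.19 (SE 0.20, and -0.26 without rat 6) and -0.18 (SE 0.20, and -0.23 without rat 6) on the log2 scale. Means were 80.2 ± 12.01 CPM (SD, 6 rats) and 95.8 ± 22.7 CPM (SD, 5 rats) for Olig1, and 29.2 ± 2.68 CPM (SD, 6 rats) and 34.3 ± 6.84 CPM (SD, 5 rats) for Olig2. Nkx6-2, a homeobox factor of maturing oligodendrocytes, had a log2 fold change of -0.16 (SE 0.31, and -0.09 without rat 6). Once sheet was a term in edgeR, 3 of the 33 genes passed an unadjusted p of 0.05, all lower (Cspg4, Bmp4 and Myrf), and 0 were higher. Over all genes, 2.31% were lower and 1.53% higher at that threshold. Leaving out rat 6 as well gave the same 3 genes, against 3.54% of all genes lower and 1.81% higher, and their adjusted p was 0.898 in each case.

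None of the 10 genes of myelin structure passed the test. Mbp, which compacts the myelin membrane, lies on chromosome 18, 75855878 to 75966404, plus strand. Its lowest, median and highest values were 1229, 1879.8 and 2728 CPM in blast-boldine rats, 1308, 2388 and 3014 CPM in the 5 deeper blast-controls and 1029.7 CPM, from 65 counts, in rat 6. The ranges nearly coincided, and the means were 1888 ± 646 CPM (SD, 6 rats) and 2160.4 ± 675 CPM (SD, 5 rats). The log2 fold change was -0.07 (SE 0.29) with all 12 rats and -0.20 (SE 0.27) without rat 6 (unadjusted p = 0.809 and 0.469, adjusted p = 1.0 in both, edgeR).

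Mag, a cell adhesion protein of the layer of the sheath that faces the axon, had the smallest p of this group and lies on chromosome 1, 86148321 to 86163640, minus strand. Blast-boldine rats had lowest, median and highest values of 152, 214 and 305 CPM, the 5 deeper blast-controls 216, 225 and 274 CPM and rat 6 206 CPM. The blast-boldine values spread wider on both sides, with means of 220.4 ± 54.7 CPM (SD, 6 rats) and 237 ± 24.01 CPM (SD, 5 rats) and a log2 fold change of -0.08 (SE 0.17, and -0.11 without rat 6) (unadjusted p = 0.622, adjusted p = 1.0, edgeR). The others of this group, Mog, Mobp, Cnp, Cldn11, Mal, Opalin, Ermn and Tspan2, had log2 fold changes between -0.05 for Ermn, a cytoskeletal protein of the sheath, and 0.09 for Mobp, a protein of compact myelin. Without rat 6 their log2 fold changes lay between -0.12 for Cnp and 0.11 for Ermn. The exons of Mog and those of Zfp57 share 94 bases on opposite strands, and reads were counted by strand.

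Among the 4 genes of lipid and acetate metabolism, Fa2h had the smallest p. It encodes the enzyme that makes the hydroxylated fatty acids of myelin galactolipids and lies on chromosome 19, 39312904 to 39364153, minus strand. Lowest, median and highest values were 18.4, 24.7 and 32.4 CPM in blast-boldine rats, 17.6, 31.96 and 34.9 CPM in the 5 deeper blast-controls and 15.8 CPM, a single count, in rat 6. The groups overlapped, and 5 of 6 blast-boldine rats lay below the median of those blast-controls. The means were 24.7 ± 5.98 CPM (SD, 6 rats) and 28.8 ± 6.94 CPM (SD, 5 rats) and the log2 fold change -0.20 (SE 0.21, and -0.22 without rat 6) (unadjusted p = 0.354, adjusted p = 1.0, edgeR). Ugt8, which makes galactosylceramide, had a log2 fold change of 0.01 (SE 0.37, and -0.07 without rat 6), Gal3st1, which turns it into sulfatide, -0.12 (SE 0.26, and -0.14 without rat 6), and Aspa, which frees acetate from N-acetylaspartate, -0.05 (SE 0.32, and -0.09 without rat 6).

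Of the 5 other mature genes, Plekhh1 had the smallest p and lies on chromosome 6, 97839288 to 97888709, plus strand. Lowest, median and highest values were 105, 133 and 155 CPM in blast-boldine rats, 95.3, 130.4 and 173 CPM in the 5 deeper blast-controls and 158 CPM in rat 6, with full overlap. The means were 131 ± 22.1 CPM (SD, 6 rats) and 137 ± 31.1 CPM (SD, 5 rats) and the log2 fold change -0.08 (SE 0.17, and -0.06 without rat 6) (unadjusted p = 0.659, adjusted p = 1.0, edgeR). Its exons and those of Pigh share 1009 bases on opposite strands. Gpr37, a receptor of mature oligodendrocytes, had a log2 fold change of 0.03 (SE 0.23, and -0.09 without rat 6), Gsn, the actin-severing protein gelsolin, -0.05 (SE 0.20, and -0.15 without rat 6), Tf 0.11 (SE 0.38, and -0.07 without rat 6), and Lpar1, a receptor for lysophosphatidic acid, 0.02 (SE 0.19, and -0.01 without rat 6). Gsn and Tf are also expressed outside the lineage, Tf in the choroid plexus among others. The 8 choroid plexus markers, none at 0 in all 11 rats, summed to 156 to 2039 CPM in blast-boldine rats and to 145 to 2493 CPM in blast-controls without rat 6, and their part in the Tf values was not tested. None of the 33 genes had groups that did not overlap, with rat 6 left out, against 0.073% of all genes higher and 0.073% lower without overlap.

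Summed over each stage, the levels of precursor and mature genes differed by less than the spread between rats. The precursor sum was 324 ± 22.5 CPM (SD, 6 rats) for the blast-boldine group and 329.9 ± 39.3 CPM (SD, 5 rats) in blast-controls without rat 6. For mature genes it was 5336 ± 1491 CPM, from 3732 to 7523, in blast-boldine rats and 5742 ± 1239 CPM, from 4273 to 7479, in blast-controls without rat 6. The ratio of the mature to the precursor sum was 16.3 ± 3.69 (11.96 to 21.8) and 17.6 ± 4.37 (13.3 to 22.6) in the same groups. In rat 6 the sums were 269 CPM and 2931 CPM, a ratio of 10.9. Since Mbp alone makes up much of the mature sum, the sum without it was also taken, and was 3449 ± 858 CPM in blast-boldine rats and 3581 ± 579 CPM in blast-controls without rat 6.

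**Figure D3:**
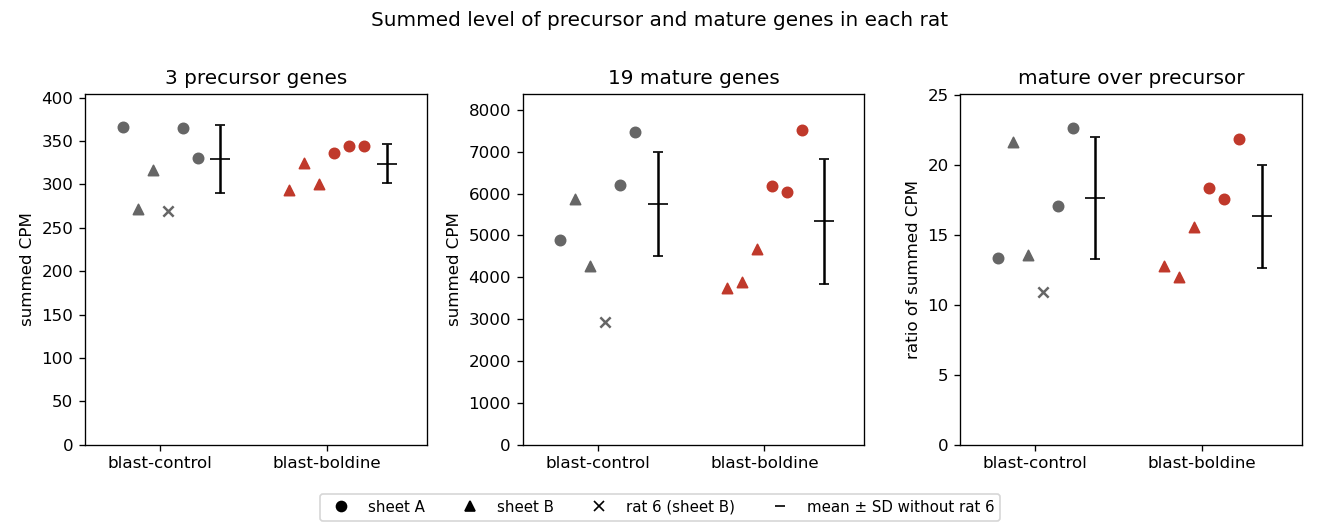
Summed CPM of the precursor and of the mature genes and the ratio of the mature to the precursor sum (vertical axes, from 0) in each of the 12 rats, by treatment (horizontal axis), with circles for sheet A, triangles for sheet B, a cross for rat 6 and bars for the mean ± SD without rat 6. The mature sum ran from 3732 to 7523 CPM in blast-boldine rats and from 4273 to 7479 CPM in blast-controls other than rat 6.

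Differences between the inferred sheets spanned a wider range than those between the treatments. The split was chosen to follow the first principal component of expression, so wide differences between sheets were in part built in by that choice. Gpr17, Cldn11, a tight junction protein of myelin, and Ugt8 were lower on sheet B, with log2 differences of -1.48, -1.25 and -1.25, and Tcf7l2, Nkx6-2 and Ermn were higher, with 1.83, 0.84 and 0.80. Of the 33 genes, 4 had all 5 deep rats of sheet B above all 6 rats of sheet A (Tcf7l2, Myrf, Nkx6-2 and Ermn), and 8 had them below (Pdgfra, Gpr17, Enpp6, Mog, Cldn11, Ugt8, Aspa and Lpar1). Over all genes, 24.8% separated in the former direction and 24.2% in the latter. The precursor sum was 342 ± 4.60 CPM (n = 3) in blast-boldine rats of sheet A and 306 ± 16.3 CPM (n = 3) in those of sheet B, and the mature sum 6578 ± 820.5 CPM and 4094 ± 507 CPM. In blast-controls without rat 6 the precursor sum was 354 ± 19.9 CPM (n = 3) on sheet A and 294 ± 31.8 CPM (n = 2) on sheet B. Their mature sums were closer, 6190 ± 1298 CPM and 5070 ± 1127 CPM, and overlapped (4884 to 7479 and 4273 to 5866 CPM). Markers of some other cell types also differed between the sheets. On sheet B, rat 6 left out, 8 of 8 microglial markers were fitted lower (median log2 difference -0.99) and 8 of 8 of astrocytes (-0.40). Of endothelium and pericytes, 6 of 8 were higher (median 0.62). Lower fits were also found for 7 of 8 markers of choroid plexus (-0.94) and 7 of 8 of meninges and fibroblasts (-0.62), but their sums overlapped widely. Choroid plexus sums were 233 to 2493 CPM on sheet A and 145 to 2039 CPM in the deep rats of sheet B. Those of meninges and fibroblasts were 50.9 to 294 CPM and 55.3 to 180 CPM. The part of these cell types in the levels of the lineage genes was not tested.

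Within the sheets the mature genes pointed in opposite directions. Without rat 6, 17 of the 19 were higher in blast-boldine rats on sheet A, with a median log2 difference of 0.10. On sheet B 18 of 19 were lower, with a median of -0.23. Of all 12325 genes tested, 6723 were higher on sheet A and 6103 lower on sheet B, with medians of 0.01 and 0.002. The counts of mature genes changed when single rats were left out. On sheet A, 10 were higher and 9 lower without blast-control rat 1, and the same counts were found without blast-boldine rat 35, which had the highest value of 16 of the 19 genes on that sheet. On sheet B, 13 were lower and 6 higher without blast-control rat 4, which had the highest value of 13 of the 19. The difference between the sheets in the response to treatment, tested by an interaction term in edgeR without rat 6, had an unadjusted p under 0.05 for 5 of the 33 genes (Sox10, Tcf7l2, Cnp, Cldn11 and Gsn), against 5.64% of all genes, and the smallest adjusted p among the 33 was 0.881.

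**Figure D4:**
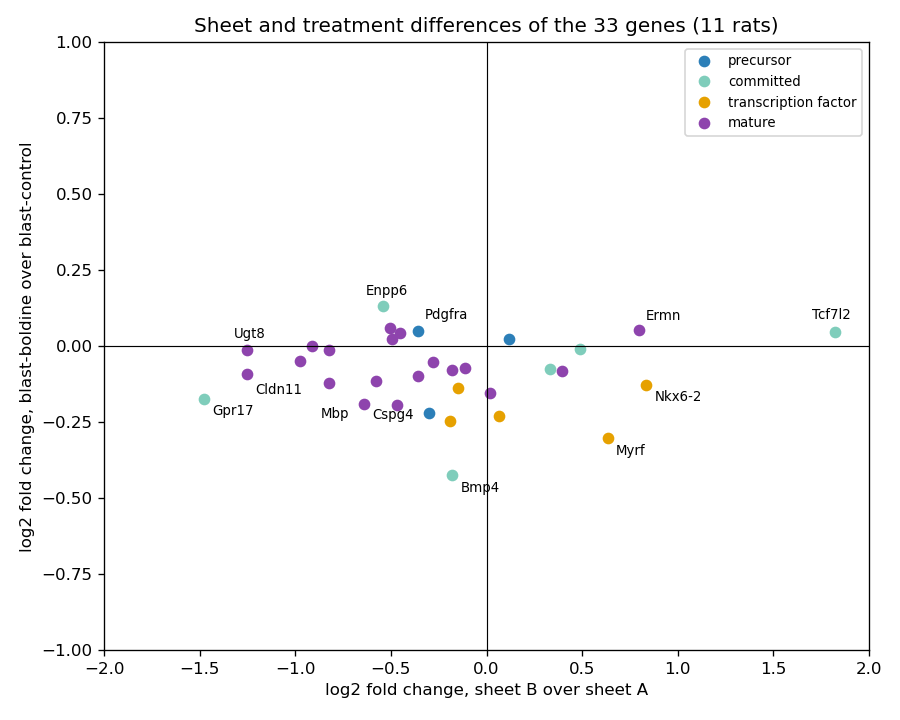
Log2 fold change of blast-boldine over blast-control rats, fitted with the sheet as a covariate (vertical axis), against the log2 difference of sheet B over sheet A (horizontal axis, on a wider scale), for the 33 genes in 11 rats without rat 6. Differences between sheets ran from -1.48 for Gpr17 to 1.83 for Tcf7l2, while treatment differences lay between -0.42 for Bmp4 and 0.13 for Enpp6. The sheets were chosen on expression, so the ranges are not a test of sheet against treatment.

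None of the further genes of the lineage passed the test either. Of 11 further precursor genes tested, 3 were fitted higher and 8 lower, of 22 further mature genes 6 and 16, of 7 genes of the node, paranode and glial gap junctions 3 and 4, of 12 genes of cholesterol synthesis 4 and 8, and of 14 growth factors and receptors 5 and 9. Their median log2 fold changes were -0.07, -0.08, -0.03, -0.08 and -0.03, and 0 of these genes had an unadjusted p under 0.05 in edgeR with all 12 rats. DESeq2 gave 1, Thra, a thyroid hormone receptor, named after its values were seen. Its edgeR log2 fold change was -0.85 with all 12 rats and -0.05 without rat 6, its mean in blast-controls being 1025.5 CPM with rat 6 and 562 CPM without it, beside 543 CPM in blast-boldine rats. With a sheet term in the edgeR fit and rat 6 left out, 11 of 11 further precursor genes were fitted lower, 19 of 22 further mature genes, 5 of 7 of the node and gap junctions, 7 of 12 of cholesterol synthesis and 12 of 14 growth factors and receptors, as were 8 of 8 astrocyte markers and 6589 of 12529 genes in all. In that fit Pdgfra and Vcan were fitted higher.

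The upstream sequences of 26 of the 33 genes were found in RefSeq for GRCr8, a later build than that of the counts. In the 250 bases before the start of each gene, both strands were searched for ACAAAG, a core of sites bound by SOX factors, for CTGGCAC, a core of sites bound by MYRF, and for CAGCTG, an E-box of the kind OLIG2 binds. ACAAAG was in 5 of the 26 (19.2%) and in 15.9% of 27457 promoters of the same length, CTGGCAC in 5 (19.2%) and 3.70%, and CAGCTG in 4 (15.4%) and 11.99%. The 5 genes with CTGGCAC were Olig2, Mag, Cnp, Mal and Opalin. The ends of CAGCTG and CTGGCAC can overlap. The median GC content was 64% in the 26 and 52% in all promoters. A match is a description of letters and not of a site in use. Shown here, 5′ to 3′ along the gene's strand with any match to these motifs in capitals, are Cspg4 and Bmp4, whose values were described in every rat, and Mag and Opalin, mature genes with the letters of a MYRF site.
Cspg4, chr8:66160692-66160941, plus strand: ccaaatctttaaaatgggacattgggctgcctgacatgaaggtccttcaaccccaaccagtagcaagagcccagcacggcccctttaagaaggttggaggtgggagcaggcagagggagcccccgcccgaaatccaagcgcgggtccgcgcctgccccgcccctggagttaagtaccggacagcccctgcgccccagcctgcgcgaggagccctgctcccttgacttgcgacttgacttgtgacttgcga
Bmp4, chr15:22101934-22102183, minus strand: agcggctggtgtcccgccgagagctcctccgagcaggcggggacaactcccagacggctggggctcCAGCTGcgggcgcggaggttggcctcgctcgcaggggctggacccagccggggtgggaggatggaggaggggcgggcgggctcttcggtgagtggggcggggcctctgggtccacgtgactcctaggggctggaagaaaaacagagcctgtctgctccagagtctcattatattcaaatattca
Mag, chr1:95291045-95291294, minus strand: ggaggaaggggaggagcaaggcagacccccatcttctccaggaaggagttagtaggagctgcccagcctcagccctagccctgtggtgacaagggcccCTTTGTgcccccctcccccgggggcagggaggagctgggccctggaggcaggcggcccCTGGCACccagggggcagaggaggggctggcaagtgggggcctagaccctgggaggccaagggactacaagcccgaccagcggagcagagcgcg
Opalin, chr1:249858191-249858440, minus strand: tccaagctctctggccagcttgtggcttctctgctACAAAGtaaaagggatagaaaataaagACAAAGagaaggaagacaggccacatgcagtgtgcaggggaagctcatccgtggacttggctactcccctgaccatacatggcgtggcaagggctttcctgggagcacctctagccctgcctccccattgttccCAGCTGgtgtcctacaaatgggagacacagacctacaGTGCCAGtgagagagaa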

How the data were processed

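The authors removed PCR duplicates and trimmed reads with HTStream, aligned them to rn7 (mRatBN7.2) with STAR 2.7.11b and RefSeq gene models, and counted exon reads by gene name and strand with featureCounts (Subread 2.0.1). The deposited values are these raw counts per gene, 1 column per rat, and the exon length of each gene. Groups came from the labels and rat numbers from the library names. Raw counts of all genes were tested here with edgeR 4.0.16 in R 4.3.3 (quasi-likelihood, TMM, filterByExpr, treatment only, 12 rats, two-sided, Benjamini-Hochberg adjustment at 0.05). Log2 CPM has a prior count of 2. Alternatives were DESeq2 1.42.0, RLE size factors, no filter or at least 10 counts, the inferred sheet as a covariate, and leaving out each rat. Some of the fits were also run on simulated counts with known fold changes. Only those with the sheet and without rat 6 were required to return these fold changes, and no such check was set for the fit of treatment only. The fit with the sheet and without rat 6 was also run without each other rat, after the data were seen. Single genes were compared by exact permutation of rats in Python 3.11.15 with scipy 1.17.1, and plots were drawn with matplotlib 3.10.9.

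The members and lists were chosen with earlier results of these data known. Values by rat were given for Mbp, Pdgfra, each member with an unadjusted p under 0.05 with all rats, without rat 6 or with the sheet, and the member of smallest p in each of the 6 groups. Of the other lists, any gene under that p with all rats would have been named, and 1 further gene, due to be named by its symbol and not by its p, is not reported here. GRCr8 was used for upstream sequences only.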

Additional observations from a re-analysis of the deposited data

Results flagged for a closer look

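In 66 groups of 6 rats (33 genes in 2 treatments), 14 held a rat whose gap to the nearest other rat was large for the range of the group. Chance alone gives about 1 such group in 20. Of the 14, 12 were blast-control rat 6, whose counts for these genes are few, so that each value is a small multiple of what 1 count is worth there (15.8 CPM). It was the highest blast-control for Cspg4 (127 CPM), Sox10 (158 CPM), Tcf7l2 (95.0 CPM), Nkx6-2 (63.4 CPM), Enpp6 (31.7 CPM) and Nkx2-2 (31.7 CPM). It was the lowest for Opalin (63.4 CPM), Gsn (47.5 CPM), Vcan (31.7 CPM), Gpr37 (31.7 CPM), and Bmp4 and Olig2 (0 CPM each). Most of these lie at or near its floor of 47.5 CPM.

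The other 2 were in deep libraries. Myrf was highest in blast-control rat 4, at 208 CPM, and Tspan2, a tetraspanin of myelin, was highest in blast-boldine rat 35, at 303 CPM.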

How the results depend on the processing

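No member had an adjusted p under 0.05 in any of the fits run. The number with an unadjusted p under 0.05, 0 in edgeR with all rats, was 3 with the sheet as a covariate, 3 with the sheet and without rat 6, and 3 in DESeq2 with the sheet and without rat 6. With the sheet and without rat 6, leaving out each other rat in turn, an alternative added after the data were seen, gave from 2 to 6. Cspg4 and Bmp4 were among them each time, and Myrf was not without rats 4, 12 or 20. The share of all genes under that p in these fits was not counted, so the counts have no background beside them. Fits of treatment alone that each dropped 1 rat gave from 0 to 1, the single gene being Bmp4 without rat 6 or without rat 32. Among the other lineage genes the count, 0 with all rats, was 1 in DESeq2 (Thra, whose difference rests on rat 6, with an edgeR log2 fold change of -0.85 with it and -0.05 without it), 1 in edgeR with the sheet and without rat 6 (Nfasc) and 2 in DESeq2 with the sheet and without rat 6 (Nfasc and Cntn1), names chosen after their values were seen. The median log2 fold change of committed genes, -0.05 with all rats, ran from -0.076 to 0.037 when single rats were left out, with the positive end without rat 5. Exact permutation gave 1 member under 0.05 with all rats and 2 within sheets and without rat 6, a setting added after the data were seen, against 0.503% and 2.68% of all genes lower. For Cspg4 the latter restates the lack of overlap within sheets. The sign of 8 members held in every fit apart from those that left out a further rat beside rat 6 (Cspg4, Vcan, Bmp4, Olig1, Olig2, Sox10, Fa2h and Gal3st1), and in those it changed for Vcan, Fa2h and Gal3st1 and held for the other 5. Without rat 35, 14 members changed sign and 28 were lower, and without rat 6, 11 changed sign and 25 were lower. Over all genes, 132 had an unadjusted p under 0.05, against 254 with no filter, 474 with the sheet, 670 with the sheet and without rat 6, 85 in DESeq2, 736 in DESeq2 with the sheet and without rat 6, 214 without rat 5, and 87, 85 and 85 without rats 1, 12 and 17. The causes were not tested. Depth limits rat 6 only. No paired analysis was possible because the rat numbers of the 2 treatments are not shared.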
